A study of Homo sapiens with 21 samples.

Results

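CCND1 encodes cyclin D1, and the comparison described here is between senescent fibroblasts that received siRNA against CCND1 (3 libraries) and senescent fibroblasts that received a non-targeting siRNA (6 libraries). These are 9 of the 21 RNA sequencing libraries of the series, chosen by the group named in their labels. The cells are IMR90, human lung fibroblasts. All 9 libraries come from irradiated cells transfected with siRNA at 5 nM on day 4 and day 7 after irradiation and harvested on day 10. The controls are 2 non-targeting reagents, called NT3 and NT4 here after the numbers in the sample titles, with 3 libraries each, and they enter the main comparison with equal weight. The other irradiated groups received siRNA against CDK4, against CDK6 or against both (dual knockdown), with 3 libraries each, and 3 further libraries come from proliferating cells that were not irradiated. The labels name 1 CCND1 knockdown group and give no siRNA sequence, so effects of the reagent outside its target and effects of losing CCND1 cannot be told apart. They do not say whether libraries of a group come from separate cultures. The limma p-values of the main fit measure the spread between libraries within the 7 groups, over all 21 libraries, and that spread may be technical.

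Cyclin D1 activates the kinases CDK4 and CDK6, which phosphorylate the retinoblastoma protein and its relatives and so release the E2F factors that drive genes of DNA replication. Genes of mitosis are switched off in resting cells by a related complex that binds a promoter element called the cell cycle homology region. Senescent fibroblasts have left the cell cycle for good, yet they are known to keep cyclin D1, to secrete cytokines, proteases and growth factors (the senescence-associated secretory phenotype), and to express interferon-stimulated genes.

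Expression is given as a normalised read count, which is the number of reads of a gene divided by 1 size factor per library. Differences are on the log2 scale of that count plus 1, knockdown minus control, and were tested with limma across 11377 genes with a threshold of 0.05 on the adjusted p. Summed over the genes of the table, depth ran from 12892442 to 21822152 reads per library. One NT3 library, named replicate 3 here, lay farther from its group mean than the other 8 (SD of log2 deviations 0.326 against 0.173 to 0.223). All 12 fibroblast markers were above 10 in each of the 9 libraries, while 4 of 8 epithelial, 4 of 6 blood and 1 of 6 endothelial markers stayed below 10 in all 9. Some other markers of these types were high: epithelial KRT18 stood at 1030 to 1995, blood CD68 at 866 to 1378 and endothelial TEK at 2018 to 3680. NT3 and NT4 differed from each other at 3221 genes (28.3%). CCND1 knockdown differed from NT4 alone at fewer genes, 2245 (19.7%), and from NT3 alone at more, 4434 (39%). Results are therefore given against the mean of NT3 and NT4 and against each alone.

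CCND1 (ENSG00000110092; chromosome 11, 69641156 to 69654474 in GRCh38.p14) was at 4552, 4198 and 5149 normalised reads in the knockdown libraries. It was at 33969, 36692 and 25615 with NT3 and at 44545, 48813 and 45546 with NT4. No knockdown library came near a control, and 11.8% of the control mean remained (14.4% of NT3, 10.0% of NT4). The log2 difference was -3.05 (SE 0.08, limma adjusted p = 1.22e-16). An exact two-sided permutation test gave p = 0.0119, the smallest that the 84 splits of 9 libraries allow. The level of the targeted gene therefore matches the group labels in all 9 libraries.

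Among the other D-type cyclins, CCND2 rose and CCND3 did not pass the test. CCND2 was at 4750, 5040 and 4693 in knockdown libraries, above the 3608, 3314 and 3615 of NT3 and the 4117, 4240 and 3889 of NT4 (log2 difference 0.35, SE 0.05, limma adjusted p = 3.08e-05). CCND3 differed by 0.08 (95% interval of the limma fit -0.03 to 0.20). Of the partner kinases, CDK6 differed by 0.13 without passing the test, and CDK4 was lower by a small margin (-0.18, limma adjusted p = 0.0242). The CDK4 call was lost when NT3 was the only control, when the fit held just these 9 libraries, and without NT4 replicate 1 or without CCND1 knockdown replicate 1 or 2.

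The INK4 inhibitors CDKN2A, CDKN2B and CDKN2C fell, while CDKN2D (0.06) and CDKN1A and CDKN1B of the CIP/KIP family did not pass the test. CDKN2A, the gene of p16 and ARF (chromosome 9, 21967752 to 21995324), was at 143, 136 and 122 in knockdown libraries against 209, 212 and 252 with NT3 and 228, 226 and 188 with NT4. CDKN2B, the gene of p15 (chromosome 9, 22002903 to 22009313), was at 291, 258 and 294 against 467, 513 and 467 with NT3 and 475 in each NT4 library. For both genes the knockdown libraries lay below all 6 controls, with log2 differences of -0.71 (SE 0.10, limma adjusted p = 1.92e-05) and -0.77 (SE 0.08, limma adjusted p = 6.91e-07). CDKN2C, the gene of p18, fell by 0.70 and also passed against each control alone. CDKN1A, the gene of p21, stood at 27345 to 28575 normalised reads in the knockdown and 28151 to 30843 in the controls, a difference of -0.07 that did not pass (limma adjusted p = 0.254), and CDKN1B differed by -0.07 likewise. CDKN2A and CDKN2B are neighbours, and how reads that touch more than 1 gene were assigned is not given in the sources used here.

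Downstream of the kinases, E2F1 and FOXM1 were lower. E2F1, an activator of S phase genes, was at most 130 in the knockdown and 167 to 200 in the controls (log2 difference -0.64, SE 0.10, limma adjusted p = 4.04e-05). FOXM1, an activator of G2 and mitosis genes, was at 284 to 325 against 448 to 585 (-0.73, SE 0.08, limma adjusted p = 5.46e-07). MYBL2, which works beside FOXM1, fell by 0.53 against the mean of the controls but differed by only -0.17 from NT4 alone, where it did not pass. The retinoblastoma gene RB1 differed by 0.08 and did not pass. Over the whole list of D-type cyclins and the RB axis, 16 of 32 tested members fell (50%, against 14.7% of all genes), CCND1 among them, and CCND2 alone rose. Only 6 members fell against each control alone, and 11 fell in the fit of the 9 libraries alone.

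Across all genes, 3607 of 11377 passed the limma threshold against the mean of the controls, 1934 higher (17% of genes tested) and 1673 lower (14.7%). Most differences were small: the median absolute log2 difference of the genes that passed was 0.35, and 48 genes rose and 130 fell by more than 1. Against NT3 alone 2306 genes were higher (20.3%) and 2128 lower (18.7%). With NT4 alone as control 1212 were higher (10.7%) and 1033 lower (9.08%). Those that passed against NT3 and against NT4 with the same sign numbered 710 higher (6.24%) and 638 lower (5.61%). Of the 3607 genes, 1671 passed in the same direction against NT3 but not NT4, 470 against NT4 but not NT3, and 118 against neither alone. A fit of the 9 libraries alone, with fewer degrees of freedom for the spread, called 2285 genes. The 3 knockdown libraries lay entirely above the 6 controls at 1294 genes (11.4%) and entirely below them at 1152 (10.1%).

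**Figure D1:**
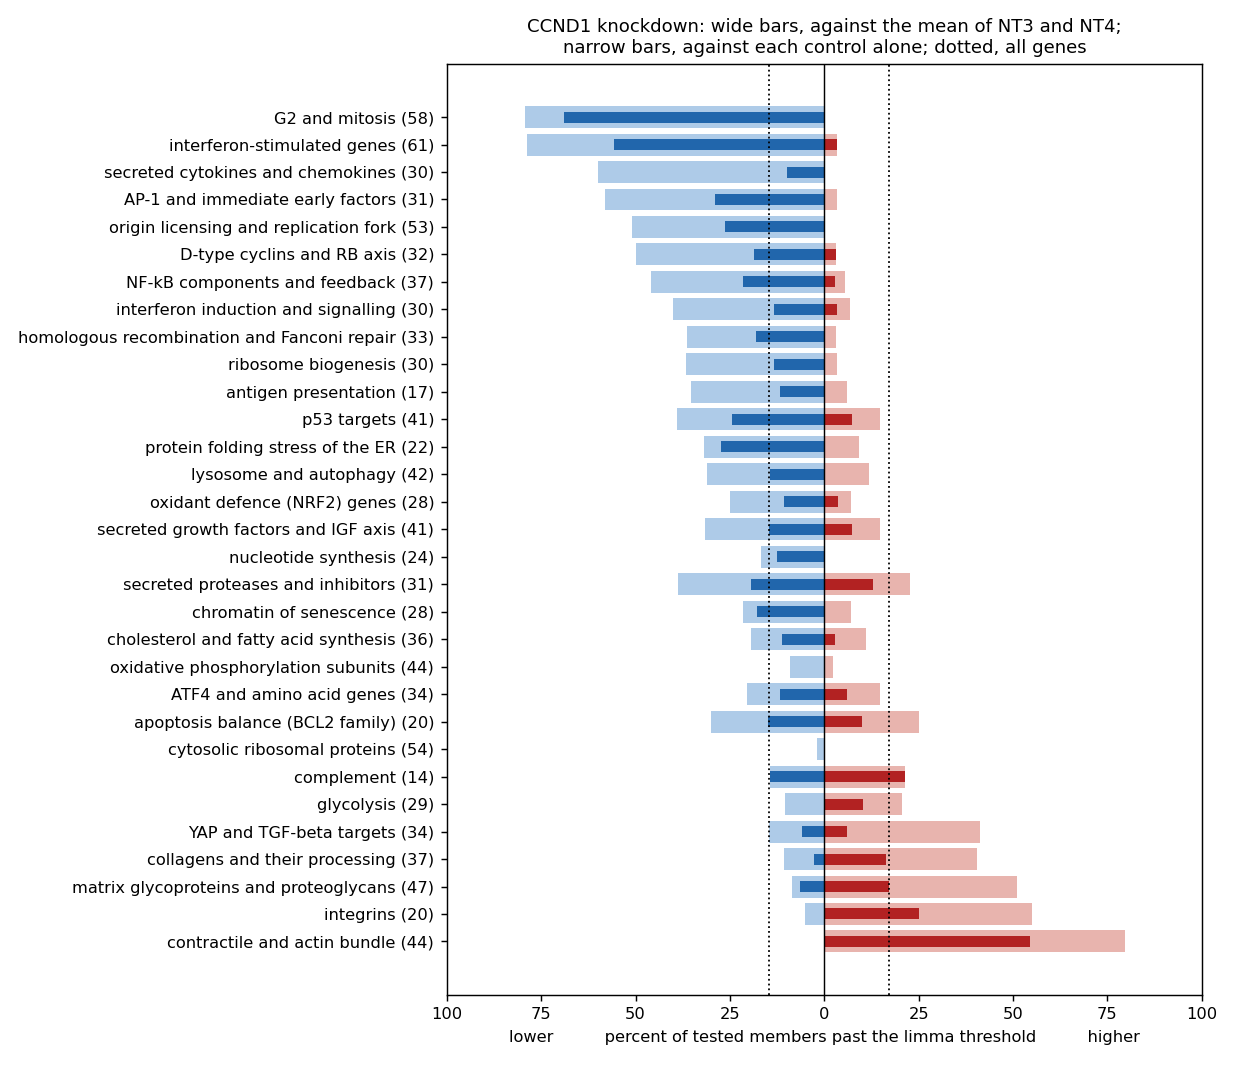
Percent of the tested members of 31 gene lists (number tested in brackets) that were lower (left) or higher (right) in CCND1 knockdown. Wide bars are against the mean of NT3 and NT4, narrow bars are members past the limma threshold against each control alone in the same direction, and dotted lines mark the share of all genes tested (14.7% lower, 17% higher). G2 and mitosis genes and interferon-stimulated genes reach farthest to the left and contractile genes farthest to the right, and the cytokine list has a long wide bar with a short narrow one.

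Genes of G2 and mitosis fell together: 46 of 58 tested members were lower and none was higher, with a median log2 difference over the 58 of -0.64, against a median of -0.0049 over all genes. In bulk libraries such as these, fewer cells that express a gene and less of its RNA per cell cannot be told apart. Of these members, 40 were lower against each control alone. The 46 differences ran from -1.06 to -0.20. KIF15, a spindle kinesin, was at 31.9, 27.7 and 50.1 in the knockdown against 113, 84.4 and 60.7 with NT3 and 83.5, 51.6 and 72.1 with NT4, which left 47.1% (log2 difference -1.06, SE 0.24, limma adjusted p = 0.00167). The groups of KIF15 do not overlap, but its highest knockdown library and its lowest control are close. CDCA8, a subunit of the chromosomal passenger complex that corrects chromosome attachment, was at 89.3, 79.0 and 91.3 against 179, 164 and 212 with NT3 and 149, 159 and 157 with NT4 (-0.96, SE 0.12, limma adjusted p = 4.31e-06). BUB1, a spindle checkpoint kinase, fell by 1.03, and BIRC5, another passenger subunit, fell by 0.95. MKI67, the proliferation marker Ki-67, fell by 0.63, as did the mitotic kinase CDK1 (-0.70) and its partner CCNB1 (-0.64). CCNA2 differed by -0.30 and did not pass the test.

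Promoters of the G2 and mitosis genes often hold the cell cycle homology region, and 2 of the most changed genes are printed to show it. The letters are the 200 bases before the annotated start, on the plus strand, from RefSeq on GRCh38.p14, with the element TTTGAA or its reverse complement TTCAAA in capitals. The KIF15 window is chr3:44761594-44761793 and the CDCA8 window chr1:37692316-37692515.
KIF15: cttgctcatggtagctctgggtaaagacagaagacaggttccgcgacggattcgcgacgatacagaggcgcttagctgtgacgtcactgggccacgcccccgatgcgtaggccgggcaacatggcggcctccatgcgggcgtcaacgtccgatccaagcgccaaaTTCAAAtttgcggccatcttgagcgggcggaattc
CDCA8: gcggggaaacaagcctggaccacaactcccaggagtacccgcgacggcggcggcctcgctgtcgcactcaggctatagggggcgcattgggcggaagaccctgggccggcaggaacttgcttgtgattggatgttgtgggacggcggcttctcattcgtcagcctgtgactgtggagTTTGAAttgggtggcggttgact
The element starts 35 bases before the start of KIF15 and 23 before that of CDCA8. It was searched on both strands in windows of 300 bases (250 before the start and 50 after) of the 9256 tested genes with a promoter in the table. It was found in 33 of 50 G2 and mitosis promoters (66%) and in 9.87% of all 9256. Of the 914 genes with the element 18.9% were lower in the knockdown, and 16.3% of the 870 outside the lists of mitosis, replication, interferon-stimulated and contractile genes, beside 14.7% of all genes with a promoter. A match describes these letters and does not show that a factor binds there.

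DNA replication genes also fell in part. Of 53 tested genes of origin licensing and the replication fork, 27 were lower and none higher, with a median of -0.32, and 14 were lower against each control alone. MCM2, a subunit of the replicative helicase, was at 162, 146 and 139 in the knockdown against 309, 309 and 275 with NT3 and 290, 300 and 268 with NT4, which left 51.0% (log2 difference -0.97, SE 0.12, limma adjusted p = 5.26e-06). ASF1B, a histone chaperone, fell by 0.87, and so did MCM10, which activates the helicase (-0.84). CDC45, another helicase component, fell by 0.88 against the mean of the controls and did not pass against NT4 alone (-0.60). The E2F element GGCGGGAA, searched on both strands, was found in 11 of 46 promoters of this list (23.9%) and in 5.14% of all. Genes with that element were lower in 16.0% of 476 cases, close to the 14.7% of all genes with a promoter.

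Nucleotide synthesis changed at few genes. Among 24 tested members 4 fell (16.7%), a share of the same order as the background of 14.7%. They were RRM2, the small subunit of ribonucleotide reductase (-0.85), TK1, thymidine kinase (-0.80), TYMS, thymidylate synthase (-0.65), and ADSL (-0.18). ADSL did not pass in the fit of the 9 libraries alone (limma adjusted p = 0.111). RRM2 stood at 621 to 755 in the knockdown and 1080 to 1451 in the controls. Of 33 tested genes of homologous recombination and Fanconi repair, 12 fell and 1 rose, and 7 fell when any one of the 3 knockdown libraries, NT3 replicate 1 or NT4 replicate 3 was left out. RAD51AP1, a gene of recombination repair, was at 43.6, 45.9 and 38.3 against 119, 103.6 and 101.9 with NT3 and 85.7, 97.3 and 98.1 with NT4 (-1.22, SE 0.17, limma adjusted p = 1.33e-05). Of 28 chromatin genes tied to senescence 6 fell (21.4%, against 14.7% of all genes) and 2 rose, LBR (0.36) and CBX5 (0.23), with a median of -0.04. LMNB1, the lamin that senescent cells lose, was at 76.6 to 108.8 against 126 to 217 (-0.76, SE 0.15, limma adjusted p = 0.000677). EZH2, the Polycomb methyltransferase, fell by 0.86, and so did HMGB2, a chromatin protein (-0.60).

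**Figure D2:**
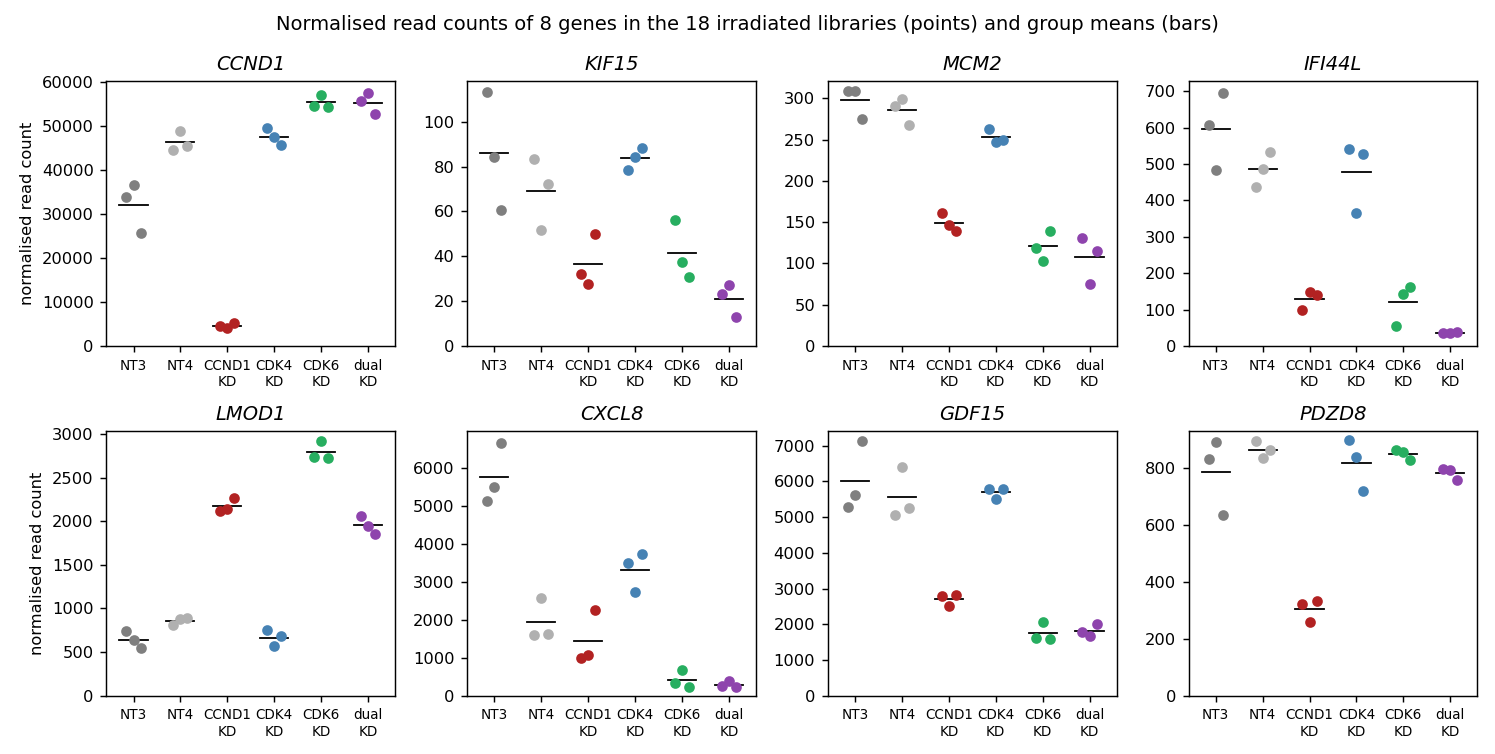
Normalised read counts (vertical axes, linear from 0) of 8 genes in each of the 18 irradiated libraries, with the group mean as a bar. CCND1 stands apart in its own knockdown at 4198 to 5149, KIF15, MCM2, IFI44L and GDF15 are lower than in both controls, LMOD1 is higher, CXCL8 overlaps with NT4, and PDZD8 is low in CCND1 knockdown.

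Interferon-stimulated genes fell together as well. Of 61 tested members 48 fell and 2 rose, the median was -0.69, and 34 fell against each control alone. The 48 falls ran from -2.06 to -0.28. IFI44L, an antiviral gene marking the interferon response, was at 100, 147 and 141 in the knockdown against 608, 483 and 695 with NT3 and 436, 487 and 533 with NT4, which left 24% (log2 difference -2.06, SE 0.27, limma adjusted p = 7.28e-06). OAS1, which makes the activator of RNase L, was at 97.8, 104.6 and 140 against 563, 401 and 578 with NT3 and 236, 345 and 360 with NT4 (-1.80, SE 0.28, limma adjusted p = 5.53e-05). For both genes all knockdown libraries lay far below all controls. Falls were also seen in RSAD2, which makes an antiviral nucleotide (-1.73), BST2, which tethers viruses to the cell surface (-1.70), MX1, an antiviral GTPase (-1.60), and OAS2 (-1.66), a call lost with a pseudocount of 0.1. IFIT1, which binds viral RNA, kept 40.3% of its control mean, IFITM1, a block to virus entry, 40.1%, USP18, which removes ISG15 and dampens interferon signalling, 49.4%, and ISG15 itself 51.3%. The 2 members that rose were GBP1 (0.33) and TRIM22 (0.24). The GBP1 call was lost in the fit of the 9 libraries alone and without CCND1 knockdown replicate 3.

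The size of these falls depended on the control. IFI44L differed by -2.20 from NT3 and -1.91 from NT4, close together, while MX1 differed by -2.06 from NT3 and -1.14 from NT4 and BST2 by -2.22 and -1.17. The median over the list was -0.85 against NT3 and -0.59 against NT4. Taking the lists library by library, with each gene set against the mean of the 6 controls, the median over interferon-stimulated genes was -0.74, -0.77 and -0.54 in the knockdown, -0.03 to 0.23 with NT3 and -0.24 to -0.03 with NT4.

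IFI44L and IFIT1 are among the 12 largest falls chosen by rule, and their promoters are printed because each holds 2 copies of the interferon-stimulated response element. The letters are again the 200 bases before the start, on the plus strand, from RefSeq on GRCh38.p14, with the element in capitals. The windows are chr1:78620248-78620447 and chr10:89392423-89392622.
IFI44L: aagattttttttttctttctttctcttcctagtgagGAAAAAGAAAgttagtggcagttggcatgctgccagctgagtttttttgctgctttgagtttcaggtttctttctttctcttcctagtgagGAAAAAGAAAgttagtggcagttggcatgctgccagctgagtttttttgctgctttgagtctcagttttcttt
IFIT1: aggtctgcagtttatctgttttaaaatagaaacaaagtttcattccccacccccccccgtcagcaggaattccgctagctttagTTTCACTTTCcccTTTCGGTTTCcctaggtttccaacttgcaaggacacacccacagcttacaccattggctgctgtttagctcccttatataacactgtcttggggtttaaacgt
The search was for GAAA and GAAA separated by 2 bases of any kind, on both strands. The copies start 164 and 73 bases before the start of IFI44L, inside a stretch that repeats, and the first copy of IFIT1 starts 116 bases before its start. The element was found in 32 of 47 promoters of interferon-stimulated genes (68.1%) and in 2.8% of all 9256. Of the 259 tested genes with the element 27% were lower in the knockdown, beside 14.7% of all genes with a promoter. Outside the 4 lists named above 19.7% of 223 were lower against the mean of the controls. Against each control alone 4.93% of the 223 were lower, beside 5.59% of all genes with a promoter.

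Genes that sense infection or carry the interferon signal had a smaller median difference than their targets. Of 30 tested members 12 fell (40%, against 14.7% of all genes) and 2 rose, with a median of -0.13. Only 4 fell against each control alone, and 8 fell in the fit of the 9 libraries alone. IRF9, part of the complex that binds the response element, fell by 0.46, and STAT2, another part, fell by 0.41 but did not pass against NT4 alone (-0.20). The RNA sensor RIGI (-0.47) and the DNA sensor CGAS (-0.44) fell, the latter without passing against NT3 alone (-0.28). IRF7, a factor that amplifies the response, had the largest log2 difference (-1.93) but few reads: 18.1, 1.07 and 1.96 normalised reads in the knockdown against 8.51 to 27 in the controls. Its call was lost against NT3 alone, with a pseudocount of 0.1, in the fit of the 9 libraries alone, with edgeR and with DESeq2, and without CCND1 knockdown replicate 2 or 3, and without replicate 1 the difference was -2.91. The receptor subunits IFNAR1 (0.33) and IL10RB (0.38) rose, IFNAR1 without passing against NT4 alone (0.20). The interferon gene IFNB1 was at 0 in all 3 knockdown libraries and at 0 to 7.28 in the controls, too low to be tested.

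Antigen presentation could be followed at only part of its genes. In the region of the major histocompatibility complex on chromosome 6 (28000000 to 34000000 in GRCh38.p14), 126 of 157 protein-coding genes in the table (80.3%) were below 10 in all 9 libraries, against 25.3% of the other 653 protein-coding genes of that chromosome. These bounds were set after the values were seen, and a narrower window (29000000 to 33000000) gave 87.4% of 119. TAP1 stood at 0 to 1.07 and PSMB8 at 0 in every library, so their levels were not measured usefully. Of the 17 testable members of the list 6 fell (35.3%, against 14.7% of all genes) and 1 rose. Only 2 fell against each control alone, and 4 fell in the fit of the 9 libraries alone. B2M, the light chain of class I molecules, was at 2609, 3090 and 3054 in the knockdown, below the 4001 to 6164 of NT3 and the 3656 to 3698 of NT4 (-0.57, SE 0.09, limma adjusted p = 7.53e-05). CD274, the checkpoint ligand PD-L1, fell by 0.58, and HLA-B fell by 0.58 but did not pass against NT4 alone (-0.33).

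Contractile genes moved the other way. Of 44 tested genes of the contractile apparatus and actin bundles, 35 rose and none fell, with a median of 0.41 and rises from 0.15 to 1.55, and 24 rose against each control alone. LMOD1, leiomodin of smooth muscle, was at 2112, 2134 and 2270 in the knockdown against 745, 638 and 541 with NT3 and 812, 877 and 887 with NT4, 2.90 times the control mean (log2 difference 1.55, SE 0.08, limma adjusted p = 4.46e-11). CNN1, the actin-binding calponin, was at 2905, 2825 and 2895 against 1180, 1102 and 1254 with NT3 and 1274, 1540 and 1213 with NT4 (1.20, SE 0.07, limma adjusted p = 5.21e-11). In both genes the 3 knockdown libraries lay close together and well above all controls. OXTR, the oxytocin receptor, rose by 1.27, and IRAG1, a target of cyclic GMP signalling that limits calcium release, by 1.26. The smooth muscle actins ACTA2 and ACTG2 rose by 0.92 and 0.88, and the actin-binding TAGLN by 0.91. MYOCD, the coactivator of serum response factor in smooth muscle, was at 484, 497 and 599 against 372, 434 and 305 with NT3 and 185, 183 and 195 with NT4 (1.0, SE 0.10, limma adjusted p = 2.98e-07), while the factor itself, SRF, differed by 0.05 and did not pass.

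The markers of smooth muscle cells and pericytes share CNN1 and ACTG2 with this list, and these 2 genes make up most of their summed level, which was 12720 to 13071 in the knockdown, 5917 to 7250 with NT3 and 7661 to 8663 with NT4. MYH11, the defining myosin of smooth muscle, was at 0 in all knockdown libraries and at most 1.11 in the controls. Of the other markers, DES (0.23) and RGS5 (0.08) did not pass against the mean, and CSPG4 rose by 0.44 but did not pass against NT4 alone (0.16).

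The promoter of ACTG2 is printed because it holds 2 copies of the CArG box, the element of serum response factor, in capitals. The letters are the 200 bases before the start on the plus strand, chr2:73892808-73893007, from RefSeq on GRCh38.p14. This element was added to the search after the values were seen.
ACTG2: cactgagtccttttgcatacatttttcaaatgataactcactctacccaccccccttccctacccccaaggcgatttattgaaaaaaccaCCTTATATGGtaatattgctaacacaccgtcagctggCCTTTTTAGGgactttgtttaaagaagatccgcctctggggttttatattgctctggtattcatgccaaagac
The copies start 110 and 73 bases before the gene. The CArG box, searched on both strands, was found in 7 of 38 contractile promoters (18.4%) and in 1.1% of all. Of the tested genes with the element 29.4% were higher in the knockdown, and of the 91 outside the 4 lists 25.3%, beside 17.1% of all genes with a promoter.

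**Figure D3:**
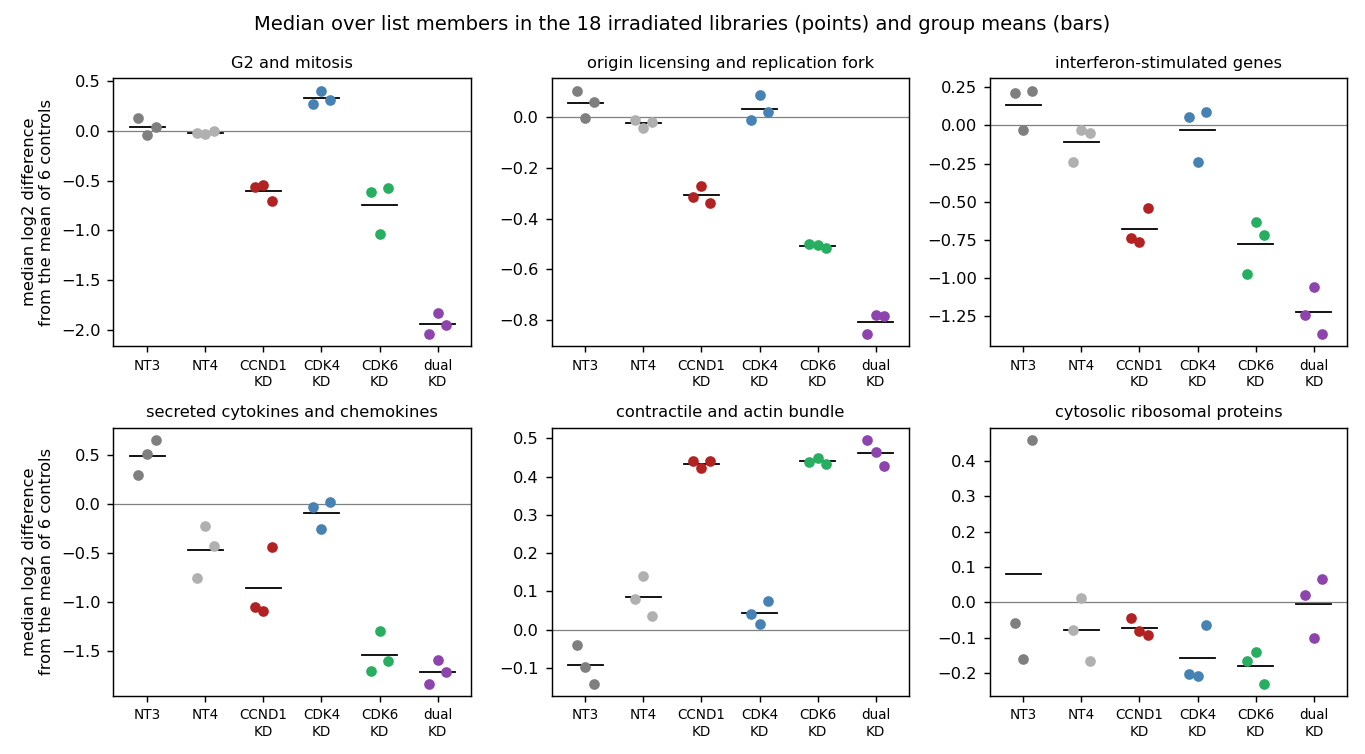
Median over the members of 6 gene lists of each library's log2 difference from the average of NT3 and NT4 (vertical axes), for the 18 irradiated libraries, with group means as bars. In CCND1 knockdown the mitosis, replication and interferon lists lie below both controls and the contractile list above both, the cytokine list overlaps with NT4, and for ribosomal proteins 1 NT3 library stands apart at 0.46.

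Adhesion and matrix genes rose in part. The list called YAP and TGF-beta targets also holds components of these pathways, such as YAP1 and TGFBR2. Of its 34 tested members 14 rose (41.2%, against 17% of all genes) and 5 fell (14.7%, as among all genes). Only 2 rose against each control alone, and 7 to 9 rose when a knockdown library was left out. Integrins and their partners rose at 11 of 20 tested members (7 in the fit of the 9 libraries alone) and fell at 1, and 5 rose against each control alone. NT3 replicate 3 stood apart on this list, with a median of -0.50 from the mean of the controls against -0.035 to 0.171 in the other 5, and lay lowest of the 6 on the matrix (-0.26) and collagen (-0.16) lists. Without it 11 integrins, 26 matrix genes and 16 collagen genes rose. ITGB8, which binds latent TGF-beta, was at 223, 276 and 219 against 64.3 to 142 in the controls (1.24, SE 0.15, limma adjusted p = 2.6e-06), and ITGB3 rose by 0.67. Matrix glycoproteins and proteoglycans rose at 24 of 47 members and fell at 4, but only 8 rose against each control alone. GPC4, a glypican, rose by 0.81 and passed against both. LAMA2, a laminin chain, rose by 1.01 against the mean, yet differed by 2.18 from NT3 and -0.16 from NT4, so the rise was seen against NT3 and not NT4. HAS2, which makes hyaluronan, fell to 269, 277 and 333 against 680 to 728 with NT3 and 388 to 508 with NT4 (-0.97, SE 0.10, limma adjusted p = 4.78e-07). Collagens and their processing enzymes rose at 15 of 37 and fell at 4 (8 and 2 in the fit of the 9 libraries alone), with COL11A1 higher by 0.95 and LOXL4, a collagen cross-linker, by 0.83. COL1A1, the main chain of type I collagen, differed by 0.19 and did not pass (limma adjusted p = 0.106).

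Secreted cytokines and chemokines depended on which control was used. Against the mean of the controls 18 of 30 tested members fell and none rose, with a median of -0.77. Against NT3 alone 17 fell with a median of -1.28, whereas against NT4 alone 4 fell and 1 rose with a median of -0.26, and 3 fell against each: CXCL5, IL24 and GDF15. Without CCND1 knockdown replicate 1, 10 members fell. IL6 was at 452, 476 and 953 in the knockdown against 1824, 1919 and 2993 with NT3 and 408, 682 and 451 with NT4. Its knockdown libraries lay below all of NT3 and among those of NT4, with differences of -1.89 and 0.23, and the call against the mean (-0.83) was lost without CCND1 knockdown replicate 1 or 2. CXCL8, the neutrophil chemokine, was at 1003, 1085 and 2268 against 5131 to 6662 with NT3 and 1602 to 2583 with NT4, and passed against NT3 (-2.08) and not NT4 (-0.49). CCND1 knockdown replicate 3 had the highest value of the 3 knockdown libraries for both genes.

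CXCL5, another neutrophil chemokine, and GDF15, a stress cytokine, did not depend on the control for their calls. CXCL5 was at 44.7, 65.1 and 94.2 against 495, 560 and 516 with NT3 and 101.3, 172 and 117 with NT4 (-1.97, SE 0.27, limma adjusted p = 1.17e-05). GDF15 was at 2790, 2499 and 2823 against 5293, 5624 and 7139 with NT3 and 5056, 6414 and 5253 with NT4, which left 46.6% (-1.09, SE 0.10, limma adjusted p = 4.59e-08). CXCL1, CXCL2, CSF2 and IL1B passed against NT3 and not against NT4, with differences from NT4 between -1.04 and -0.25. The calls of CXCL1 and CSF2 against the mean were also lost with a pseudocount of 0.1, and that of CXCL1 without CCND1 knockdown replicate 1. CXCL1 and CXCL2 are close in sequence, and how reads shared by such genes were assigned is not given in the sources used here.

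**Figure D4:**
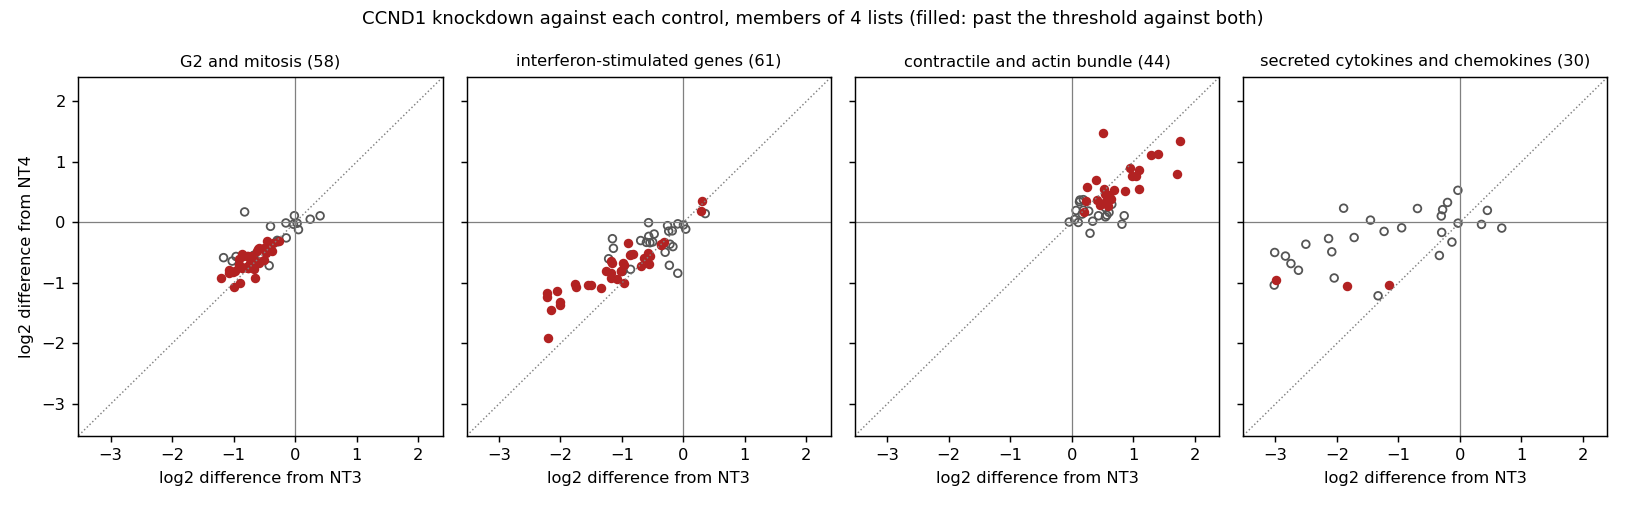
Log2 difference of CCND1 knockdown from NT3 (horizontal) and from NT4 (vertical) for each tested member of 4 lists, with filled points past the limma threshold against both controls in the same direction and a dotted line of equality. Most mitosis genes lie near the line, most interferon-stimulated genes lie below 0 on both axes, most contractile genes lie above 0 on both, and cytokine genes spread along the horizontal axis with 3 filled points.

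Other secreted factors had calls both ways, and the rises were nearer than the falls to the share of all genes. Of 31 tested proteases and their inhibitors 7 rose (22.6%, against 17% of all genes) and 12 fell (38.7%, against 14.7%). MMP1, an interstitial collagenase, was at 8661, 8926 and 9261 against 6595, 7543 and 7986 with NT3 and 5856, 6485 and 6567 with NT4, above every control (0.40, SE 0.07, limma adjusted p = 0.0004). MMP3, stromelysin, went the other way and was at 348, 304 and 386 against 529 to 820 in the 6 controls (-0.88, SE 0.13, limma adjusted p = 3.6e-05). TIMP3, a matrix-bound inhibitor of these enzymes, rose by 0.65. Growth factors and the IGF axis rose at 6 of 41 (14.6%, against 17% of all genes; 11 without NT3 replicate 3) and fell at 13 (31.7%), with AREG, an EGF receptor ligand, lower (-0.94), STC1 lower (-0.79), IGFBP5 higher by 0.75 and ANGPT1, a vessel growth factor, higher by 0.72.

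Genes downstream of NF-kB and the immediate early factors were lower in part. Among 37 tested NF-kB components and feedback genes 17 fell and 2 rose, with 8 falls against each control alone and 10 without CCND1 knockdown replicate 1. PTGS2, the inducible enzyme of prostaglandin synthesis, was at 430, 353 and 609 against 1977, 2262 and 1751 with NT3 and 1008, 990 and 929 with NT4 (-1.62, SE 0.15, limma adjusted p = 7.16e-08), below all controls. TNFAIP6, which modifies hyaluronan, fell by 1.44. VCAM1, an adhesion molecule of the same list, rose by 0.73. Of 31 AP-1 and immediate early genes 18 fell and 1 rose, with 9 falls against each control alone. FOS was at 24.5, 34.1 and 29.4 against 53.5 to 73.7 in the controls (-1.06, SE 0.22, limma adjusted p = 0.000809). FOSB (-1.10), the nuclear receptor NR4A2 (-0.98) and ATF3, a stress-induced repressor (-0.90), fell as well.

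Stress pathways had calls in both directions. Outside the BCL2 family list, the share that rose against the mean of the controls was below the 17% of all genes. Of 41 tested p53 targets 16 fell (39%, against 14.7% of all genes) and 6 rose (14.6%). These were 10 and 4 in the fit of the 9 libraries alone, with 10 falls and 3 rises against each control alone. Falls included SESN1 (-0.79) and SESN2 (-0.50), which restrain growth signalling, BBC3, the cell death gene PUMA (-0.62), and MDM2, the p53 inhibitor (-0.39), while ZMAT3 rose by 0.44. In the ATF4 list 7 of 34 fell (20.6%, against 14.7% of all genes) and 5 rose (14.7%, against 17%), with a median of -0.02, and only 2 rose without CCND1 knockdown replicate 2. The falls included DDIT3, the factor CHOP (-0.84), CTH, which makes cysteine (-0.85), and SLC3A2, an amino acid transporter chain (-0.70). FTL and FTH1, the chains of the iron store ferritin, fell by 0.54 and 0.58, the latter without passing against NT4 alone (-0.30). Of 28 oxidant defence genes, which include both ferritin chains, 7 fell (25%) and 2 rose (7.14%), and 3 fell against each control alone. Without NT3 replicate 3 the rises numbered 5. Of 42 lysosome and autophagy genes 13 fell (31%) and 5 rose (11.9%), with 6 falls against each control alone. The fit of the 9 libraries alone gave 8 falls and 3 rises, and without NT3 replicate 3 there were 8 rises. Among the falls were the autophagy receptor SQSTM1 (-0.57) and the protease CTSS (-1.21). In the BCL2 family list 5 of 20 rose (25%) and 6 fell (30%), with BMF, a promoter of cell death, lower (-0.80).

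Among housekeeping groups, ribosomal proteins and oxidative phosphorylation had few calls, and these counts changed with the setting. Among 54 tested cytosolic ribosomal proteins none rose and only RPL18 fell (-0.28), a call lost against NT4 alone, in the fit of the 9 libraries alone, and without NT4 replicate 2 or CCND1 knockdown replicate 2 or 3. Under quantile normalization 11 of these genes fell, and 8 fell without NT3 replicate 2. Of 44 subunits of oxidative phosphorylation 1 rose and 4 fell, and none passed against NT4 alone. The falls numbered 0, 1 and 2 without CCND1 knockdown replicate 1, 2 and 3, 2 without NT4 replicate 2, and 11 without NT3 replicate 2. NT3 replicate 3 stood apart here: its median over the ribosomal list was 0.46 above the mean of the controls, against -0.17 to 0.01 in the other 5. Without that library 8 ribosomal protein genes were higher and 3 lower in the knockdown. Ribosome biogenesis genes fell at 11 of 30 (36.7%, against 14.7% of all genes) and rose at 1, and fell at 6 without CCND1 knockdown replicate 1. Glycolysis genes rose at 6 of 29 (20.7%, against 17% of all genes) and fell at 3, with 11 rises without NT3 replicate 3 and 7 falls under quantile normalization, and with PDK1, which holds back entry of pyruvate into mitochondria, higher by 0.51.

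Beyond the lists, the rule for the largest rises and falls added genes of other kinds. RELN, a secreted matrix protein, rose by 1.18, ANO1, a calcium-activated chloride channel, by 1.16, SGCD, a sarcoglycan of the muscle membrane, by 1.10, and VSIR, an immune checkpoint protein, by 1.10. PITPNM3, a phosphatidylinositol transfer protein, rose by 1.46. In each of these genes the knockdown libraries lay above all controls. Some genes split the controls instead: 91 of all 11377 tested genes passed against both in opposite directions, of which 11 also passed against the mean. IGFBP3, which did not pass against the mean, was at 18671 to 19898 in the knockdown, between the 28397 to 38064 of NT3 and the 7376 to 9319 of NT4, and ANKRD1, a YAP target that did not pass against the mean either, was at 410 to 512 between 682 to 888 and 154 to 206. NPTX1 and TP53INP1 lay between the controls too, above NT3 and below NT4.

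The kinase knockdowns, which do not share libraries with CCND1 knockdown, allowed direct tests. Against CDK4 knockdown 1457 genes were higher (12.8%) and 1241 lower (10.9%) in CCND1 knockdown. Against CDK6 knockdown 790 were higher (6.94%) and 631 lower (5.55%), a total of 1421 that fell to 929 without CDK6 knockdown replicate 3. Against the dual knockdown 1298 were higher (11.4%) and 1058 lower (9.3%).

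By list, CCND1 knockdown lay below CDK4 knockdown and above the dual knockdown for mitosis genes: 48 of 58 were lower than with CDK4 siRNA (median -0.99) and 55 were higher than with both siRNAs (median 1.31). Against CDK6 knockdown 6 were higher and none lower (median 0.14). Interferon-stimulated genes had the same order, with 43 of 61 lower than in CDK4 knockdown, 38 higher than in the dual knockdown, and 6 higher and 1 lower against CDK6 knockdown. IFI44L differed by -1.87 from CDK4 knockdown and 1.75 from the dual knockdown, and by 0.23 from CDK6 knockdown, which did not pass (95% interval -0.42 to 0.88). Contractile genes were higher than in CDK4 knockdown at 28 of 44, while 3 were higher and 7 lower against CDK6 knockdown and 8 and 6 against the dual knockdown. Of 30 cytokines 14 were lower and 1 higher than in CDK4 knockdown (median -0.75), and 19 were higher and none lower than in the dual knockdown (median 1.06). Against CDK6 knockdown 15 were higher and none lower (median 0.72), with IL1B higher by 2.39, CXCL8 by 1.86 and IL6 by 1.13. CDKN2B differed by 0.89 from CDK6 knockdown and by -0.76 from CDK4 knockdown.

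A set of 149 genes (81 higher, 68 lower) passed in the same direction against the controls and against every kinase knockdown. PDZD8, a lipid transfer protein at contacts of the endoplasmic reticulum (chromosome 10, 117277274 to 117375440), was at 322, 260 and 333 in CCND1 knockdown against 834, 892 and 635 with NT3 and 896, 836 and 867 with NT4, which left 36.9% (log2 difference -1.43, SE 0.09, limma adjusted p = 7.6e-10). It differed from the CDK4, CDK6 and dual knockdowns by -1.43, -1.49 and -1.37. ASH2L, a core subunit of histone H3 lysine methyltransferases, was lower (-0.70), and so were DUS1L, which modifies transfer RNA (-0.75), USP24, which removes ubiquitin (-0.65), and SYNJ2BP, a mitochondrial outer membrane protein (-0.50). Rises of this kind were in MYOCD (1.0), RGS4, a brake on G protein signalling (0.98), CLDN11, a tight junction protein (0.72), TIMP3 (0.65), and DZIP1, a ciliary protein (0.62). Whether these genes follow from losing CCND1 or from the siRNA reagent cannot be told apart with 1 reagent label.

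**Figure D5:**
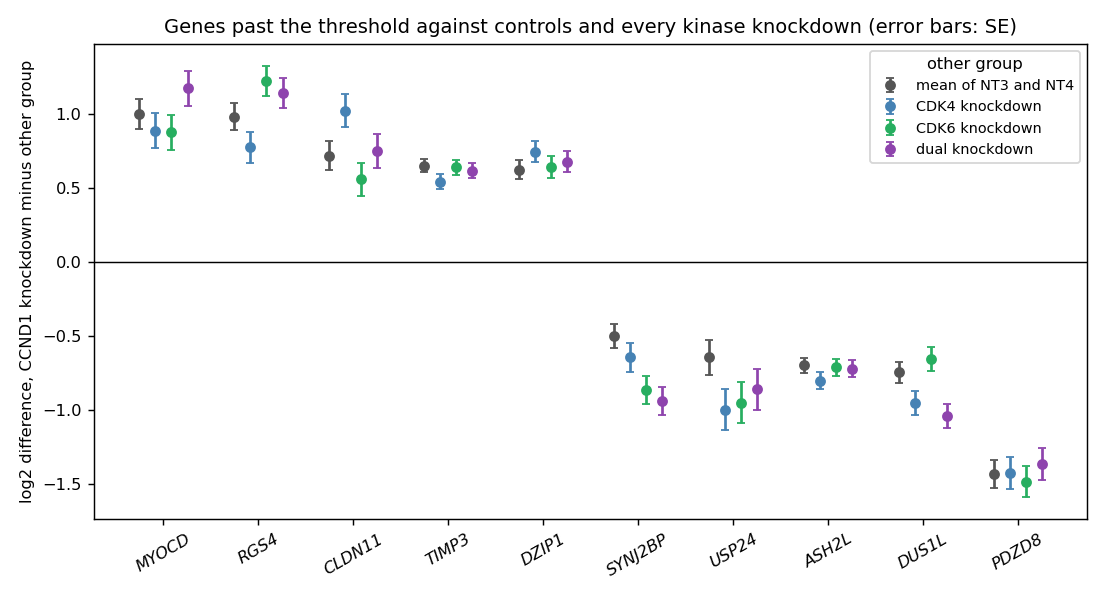
Log2 difference (vertical axis, error bars are standard errors) of CCND1 knockdown from the mean of NT3 and NT4 and from the CDK4, CDK6 and dual knockdowns for 10 of the genes named by rule among the 149. The 4 differences of a gene share a sign by the rule that chose them, and PDZD8 has the largest falls, from -1.49 to -1.37.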

How the data were processed

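The deposited table gives 1 value per gene and library, an expression signal that the authors made by dividing read counts by 1 size factor per library, per the values and the submitters' processing notes (the file headers say only counts), for 16383 genes with Entrez identifiers up to 140467. Genes with higher identifiers were not analysed here. The submitters' processing notes name Trimmomatic 0.38.1, HISAT2 2.2.1, featureCounts 2.0.3, FastQC 0.74, MultiQC and DESeq2 2.11.40.8 and the builds hg38 and GRCh38, without their role or order. Within a library all values were multiples of 1 step (tolerance 0.02 reads), so whole reads were recovered for 100% of values. In 1 dual knockdown library the step was too close to 1 to tell it from rounding. Library depth sets the counting error of low genes. Columns carry groups but no replicate numbers, so numbers here are names in column order.

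Genes with a value of 10 or more in at least 3 of the 9 libraries were kept (11377). Values were put on the scale log2 of the value plus 1. The model (limma 3.58.1, R 4.3.3) had a mean for each of 7 groups of 3 libraries and a trended variance over all 21. Tests were two-sided with Benjamini-Hochberg adjustment over all genes within a comparison. The count alternatives used edgeR 4.0.16 and DESeq2 1.42.0 on the recovered reads. They called 3634 and 3729 genes against the mean of the controls. The fit was tested on simulated data.

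Named genes were a fixed panel, the 12 largest rises and falls past the threshold against each control without overlap, the leading members of each list, the 6 largest in each direction that differed from every kinase knockdown, and 4 that split the controls. A few further list members (ACTG2, CCNA2, CCNB1, CDK1, CGAS, IL24, IRF9, ISG15, MDM2, MYBL2, RIGI, SRF, STAT2, TAGLN and the low genes TAP1, PSMB8 and IFNB1) were named after their values were seen. A few genes are not reported here. The gene lists, the members and the tests were chosen with earlier results of these data known. List counts are descriptions and carry no set test.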

Additional observations from a re-analysis of the deposited data

How the results depend on the processing

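No paired analysis was possible because the table's columns carry no replicate number. The library codes in the headers run in 3 series with 1 library of each irradiated group in each, which the labels do not call a batch or a pair, and a fit with these series as a term, added after seeing the data, gave 3407 genes against the mean of the controls. Of 150 genes followed through 22 alternatives, 138 passed in the main comparison. Of these, 28 lost the call under at least 1 alternative (13 of them only with NT3 or NT4 alone as control), and 4 changed sign with one control alone. With NT3 alone the difference was -0.16 for CCN2, -0.85 for ANKRD1, -0.80 for IGFBP3, 0.45 for NPTX1 and 0.64 for TP53INP1. With NT4 alone it was -0.16 for LAMA2 and 0.23 for IL6. The count of 3607 genes became 2245 with NT4 alone, 2285 in the fit of the 9 libraries alone, which has fewer degrees of freedom, and 178 when a log2 difference over 1 was also required. That requirement also left 392 of 4434 genes against NT3, 118 of 2245 against NT4, 237 of 2698 against CDK4 knockdown, 80 of 1421 against CDK6 knockdown and 276 of 2356 against dual knockdown. The 9 libraries alone gave 1191 genes against NT4. Leaving out each library in turn gave 2551 to 4176 genes against the mean, 3636 to 4977 against NT3, 1571 to 1784 against NT4, 2004 to 2247 against CDK4 knockdown, 929 to 1102 against CDK6 knockdown and 1745 to 2087 against dual knockdown. Leaving out each library put the CCND1 difference between -3.13 and -2.98, and NT4 or NT3 alone put it at -3.32 or -2.78. Pseudocounts of 0.1 and 10, other filters, median centring, quantile normalization, edgeR and DESeq2 gave 3348 to 3729. A fit of the 18 irradiated libraries (3343) was also added after seeing the data. Genes with few reads, such as IRF7, are limited by depth.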

Other observations

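Complement genes, which the report does not describe, had calls near the shares of all genes. Of 14 tested members 3 rose (21.4%, against 17% of all genes) and 2 fell (14.3%, against 14.7%). Each of these also passed against each control alone, as did 6.24% of all genes higher and 5.61% lower. MASP1, a protease of the lectin pathway, rose by 0.79, CD46, a surface regulator, by 0.40 and CLU, clusterin, by 0.27, while CD55, another surface regulator, fell by 0.61. Among 22 genes of protein folding stress in the endoplasmic reticulum 6 fell against each control, among them DNAJB9 (-0.48), XBP1 (-0.32) and HERPUD1 (-0.32). Squalene synthase FDFT1 fell by 0.58 and INSIG1, which holds back cholesterol synthesis, by 0.65, while STARD4, a cholesterol carrier, rose by 0.49, although the list of cholesterol and fatty acid synthesis as a whole had 7 falls (19.4%, against 14.7% of all genes) and 4 rises among 36 members, with 11 and 13 falls without NT3 replicate 1 and 3. These genes were named after their values were seen.

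Low values in the major histocompatibility region touched genes of other kinds as well. RPS18, a ribosomal protein gene, stood at 0 to 6.07 normalised reads in the 9 libraries, TNF and C4A were at 0 in all of them, and IER3 reached at most 8.49. HLA-B, in the same region, was at 1328 to 3115. Results for genes of this region therefore rest on the 31 of 157 that reached 10 in at least 1 library, a count taken over the table's protein-coding genes.

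The fall with the largest fitted size among genes past the threshold was not that of CCND1. DNAJA3, a mitochondrial chaperone gene, was at 2.13, 0 and 0 normalised reads in the knockdown against 103.8, 13.5 and 7.28 with NT3 and 5.56, 34.1 and 84.6 with NT4. The fitted difference was -4.10 with an SE of 1.12 (limma adjusted p = 0.00822), and the controls themselves ranged widely. The gene lies under the floor on levels used to name the largest changes, and was named after its values were seen.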
